A study of Mus musculus with 4 samples.

Results

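Fibroblasts without the lysophosphatidic acid receptor Lpar1 (KO) were compared with fibroblasts carrying it (WT) on the arrays labelled 0 h of a coculture with mast cells. The members are the genes measured on both 0 h arrays, meaning that the scanner software called the spot well above background and unsaturated there, which gave 20313 of the 29658 genes on the array. All values below are KO 0 h minus WT 0 h unless another pair is named. They are differences of normalized log2 signal, where 0 is an array's own 75th percentile of processed signal, and a gene takes the value of its brightest probe. The cells of both groups were Swiss 3T3, a mouse fibroblast line. The WT group is labelled Lpar1+/+ and the KO group Lpar1-/-, the latter a single-cell clone made with CRISPR/Cas9 and a guide next to exon 3 of Lpar1. The mast cells were wild-type cells grown from mouse bone marrow in 10 ng/ml IL-3 for 4 to 6 weeks, and 100 ng/ml SCF was present in the coculture. RNA was pooled from 3 samples per array and there is 1 array a group, which leaves no replicate spread and allows neither a test nor a p-value. Genes are called higher or lower from a 2-fold difference upwards, as a description of this pair of arrays. Because the KO cells are 1 clone, a difference between clones and a difference between genotypes cannot be told apart.

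Lysophosphatidic acid is a lipid made outside cells by the enzyme autotaxin. Its receptor Lpar1 couples to several G proteins. A branch of this signalling activates the GTPase RhoA and actin polymerization, which releases the coactivator MRTF to bind the serum response factor SRF and switch on smooth muscle and cytoskeletal genes. Fibroblasts in turn support mast cells through membrane-bound SCF, encoded by Kitl, through IL-33, and through matrix and adhesion molecules. Mast cells are blood-derived cells whose granules hold proteases, histamine and serotonin.

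The labels name the 0 h samples as cocultured fibroblasts and do not say which cells they still held, so marker genes were read first. On WT 0 h 72.7% of spots and on KO 0 h 71.5% were well above background, all 4 arrays lay on 1 slide, and no spot was saturated. All 22 markers of mast cells were detected on both 0 h arrays, from −2.91 to 6.41 on WT 0 h and from −1.76 to 6.76 on KO 0 h. Their summed linear signal, in units of each array's 75th percentile, came to 511.2 for WT 0 h and 734.6 for KO 0 h. At 24 h it was 1.475 in WT and 16.98 in KO. Most of that KO sum came from 1 marker that read 3.86, where the brightest marker in WT read −1.75. The KO 24 h sum therefore does not stand for the marker set. The median marker read −4.99 on WT 24 h and −4.92 on KO 24 h. Of the 22 fibroblast markers, 21 were detected at 0 h in either genotype, Lum being the exception, and their signals summed to 279 in WT and 220.3 in KO. Of 20 macrophage and dendritic markers, 16 were detected on WT 0 h and 17 on KO 0 h, with summed signals of 11.64 and 24.13. Of 17 lymphoid, erythroid and platelet markers, 10 and 11 were detected, with summed signals of 2.282 and 3.433. Granulocyte and basophil markers were detected for 12 of 18 on each 0 h array, with summed signals of 40.7 and 40.8. Cd79a, Cd8a and Hbb-b1, genes of B cells, T cells and red cells, were not above background on either 0 h array, whereas Cd79b, Cd3e and Hba-a1 of the same list were on both. In RNA from a mixture of cells, fewer cells of a type and less RNA per cell cannot be told apart.

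Mast cell and fibroblast genes were therefore separated by their behaviour on the 24 h arrays. A gene is called kept where it was well above background on all 4 arrays and no more than 2-fold lower at 24 h in either genotype, and this class held 15146 genes (74.6%). A gene is called low at 24 h where it was at least 8-fold lower at 24 h in both genotypes, and this class held 526 genes (2.59%), among them 20 of the 22 mast cell markers, the others being Hdc and Il1rl1. The remaining 4641 genes (22.8%) lay between. The 21 measured fibroblast markers included 17 kept genes and 0 low ones. The low class gave 2.09% of the summed signal on WT 0 h and 3.94% on KO 0 h, and 0.027% and 0.0316% on the arrays labelled WT 24 h and KO 24 h. Chosen after seeing the data, a division by the genotype brighter at 0 h alone gave 15805 kept genes, 838 low genes and 3670 between.

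At least 2-fold higher on KO 0 h were 1882 genes (9.27% of those measured) and at least 2-fold lower were 822 (4.05%), around a median of 0.06. Both shares are the background for the counts of called list members below. The median standard error (SE) of a difference was 0.20. This SE comes from the scanner software's spot error and covers neither culture nor labelling. The share of higher genes among those called was 69.6%, and it was 58.1% after quantile normalization, 80.3% with the arrays centred on reference genes, 97% centred on fibroblast markers and 36.2% centred on spike-in RNAs. The median of all genes was 0.84 with fibroblast centring, 0.19 with reference centring and −0.17 with spike-in centring. Dim genes, with a mean signal under −4, gave 837 higher and 170 lower calls among 6019, and the 14294 brighter ones gave 1045 and 652. The 8 spike-in RNAs in the upper range, which are added in equal amounts, differed by −0.12 to 0.52 with a median of 0.33, and the 2 dim ones by 0.58 and 0.69.

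**Figure D1:**
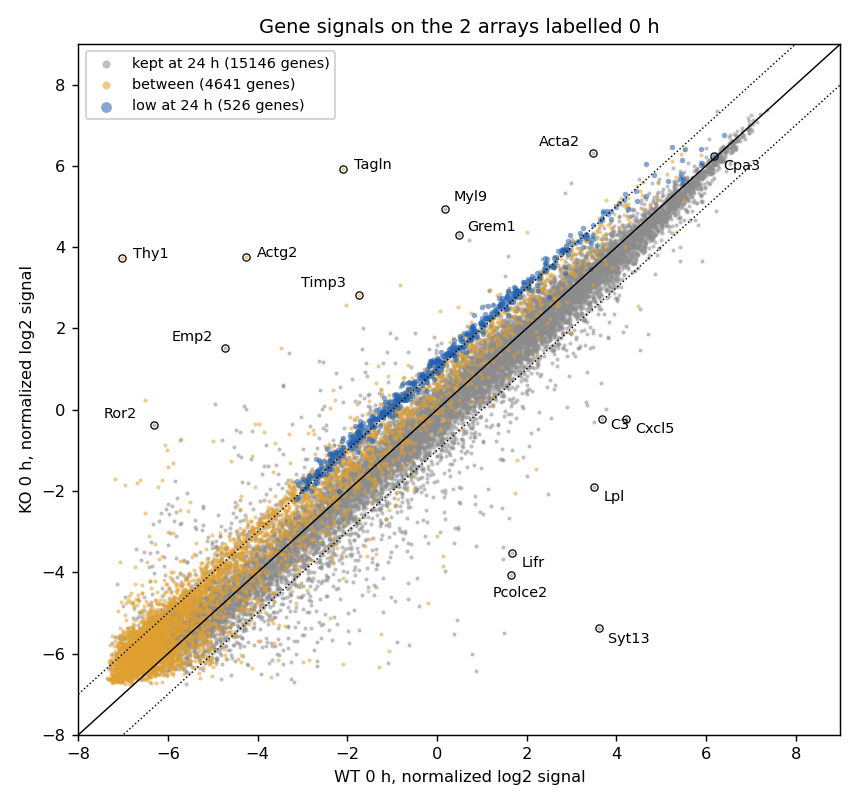
Normalized log2 signal on WT 0 h (horizontal) and KO 0 h (vertical) of the 20313 measured genes, coloured by class, with equality as a solid line and 2-fold as dotted lines; circles mark labelled genes. The 526 genes low at 24 h form a band near the upper dotted line, while kept genes spread to both sides, with Syt13, Lpl and Cxcl5 below and Acta2, Myl9 and Emp2 above.

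Every one of the 526 genes low at 24 h read higher on KO 0 h than on WT 0 h. Their differences ranged from 0.04 to 1.52 with a median of 1.10 and quartiles of 1.00 and 1.19, and 401 (76.2%) passed 2-fold higher with 0 lower. The kept genes had a median of −0.08, with 499 of 15146 higher (3.29%) and 747 lower (4.93%), a balance that turned to 2387 higher and 213 lower with fibroblast centring. The genes between had a median of 0.65, with 982 higher (21.2%) and 75 lower (1.62%). Dim genes, with a mean signal under −4, made up 3073 of these 4641. Their median was 0.64, beside 0.68 for the 1568 brighter genes between. After normexp background correction followed by quantile normalization (normexp below), the difference of the whole between class shrank to a median of 0.09. Quantile normalization alone gave 0.37. The low class stayed at 1.09 with normexp and 1.16 with quantile normalization alone. The normexp step adds an offset of 50 signal units to every spot, which draws log2 differences of dim spots towards 0 by construction. How much of the shrinkage comes from this was not tested. By WT 0 h signal, the medians of the low class were 1.13, 1.12, 1.12 and 1.02 in the 4 ranges from −4 to 4, and 0.63 in the 22 genes above 4, of which 4 passed 2-fold. With normexp the same 5 medians were 0.88, 1.07, 1.17, 1.12 and 0.69.

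Within that class several of the strongest signals showed the smallest differences. Cpa3, a mast cell carboxypeptidase, read 6.19 on WT 0 h and 6.25 on KO 0 h, a difference of 0.06. Fcer1a, the IgE-binding chain of the high-affinity IgE receptor, read 5.48 and 5.59. Tph1, which makes serotonin, read 6.41 and 6.76. These genes stand near the top of the signal scale on both arrays, and none of them was saturated. Gata2, a transcription factor of the mast cell lineage, read 3.18 on WT 0 h and 4.36 on KO 0 h, a difference of 1.18. Mcpt4, a connective tissue mast cell protease, read 1.40 and 2.57, a difference of 1.17. Kit, the SCF receptor, read 4.45 and 5.37, a difference of 0.91.

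The largest differences among the low genes were small in absolute terms. Slc7a8, an amino acid transporter, read 1.00 on WT 0 h and 2.52 on KO 0 h (1.52). Tnfrsf13b, a receptor for the B cell factors BAFF and APRIL, read 0.83 and 2.33, and its other probe gave a difference of 0.80. The kinase gene Aatk (1.47), the chromatin organizer Satb1 (1.47), Prr15 (1.44), Fam3b (1.42) and Miga1 (1.42) followed. Next came the mucin Muc13 (1.41), the secretion factor Unc13b (1.41), the heparan sulfate enzyme Hs3st1 (1.40), Rab44 (1.39) and the adaptor Lpxn (1.36). The transcription factor Nfatc2 (1.35), the Y-linked helicase Ddx3y (1.35) and the carboxypeptidase Cpb1 (1.35) completed the 15. No gene of this class passed 2-fold in the other direction.

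No gene of the lists of mast cell genes was called lower. Of 22 mast cell markers 10 were called higher and 0 lower (median 0.93). Of 21 measured pan-leukocyte markers 15 were higher and 0 lower (1.01), including Lcp2 (1.28), an adaptor of immune receptors, and Ptprc (1.17), which encodes CD45. Of 20 mast cell transcription factors 10 were higher and 0 lower (1.01), with Myb at 1.21 and Ikzf1 at 1.20. Receptors and proximal signalling genes had 11 of 24 higher and 0 lower (0.93), among them the kinase Btk (1.20) and the ATP receptor P2rx1 (1.20). Cytokines and activation genes had 6 of 22 higher and 0 lower (0.68), with Il4 reading 0.38 and 1.62 and Ccl4 3.70 and 4.88. Proteases and granule genes had 6 of 19 higher and 0 lower (0.92), and lipid mediator enzymes 4 of 13 and 0 (0.84). Macrophage and dendritic markers had 6 of 16 higher and 1 lower (0.57), and granulocyte and basophil markers 4 of 11 higher and 2 lower (0.25). What part a larger share of mast cell RNA on KO 0 h has in the differences of the other genes was not tested.

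**Figure D2:**
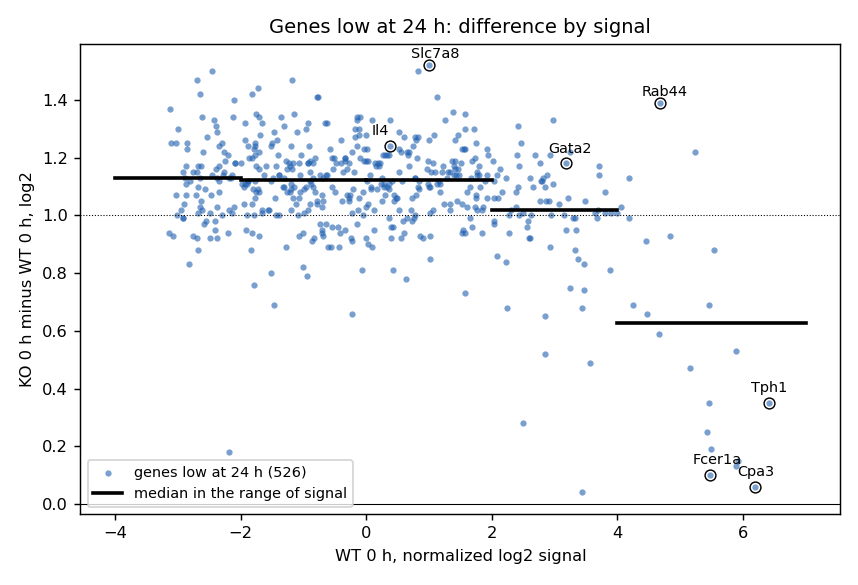
KO 0 h minus WT 0 h (log2) against the WT 0 h normalized log2 signal for the 526 genes low at 24 h, with black bars for the median in each range of signal and a dotted line at 2-fold. All points lie above 0, and the medians stay between 1.02 and 1.13 up to a signal of 4 and reach 0.63 above it.

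Genes that every cell uses differed little. None of 20 reference genes was called, with differences from −0.42 (Polr2a) to 0.63 (Ywhaz) and a median of −0.10. None of 23 ribosomal protein genes was called (median −0.08), and none of 25 oxidative phosphorylation genes (median −0.27), although with fibroblast centring these medians became 0.71 and 0.51. None of 26 unfolded protein and integrated stress response genes and none of 23 G2 and M phase genes was called either, with medians of 0.05 and −0.07. Of 23 S phase genes, the replication licensing factor Cdc6 (−1.23) and the thymidylate synthase Tyms (−1.05) were called lower, and the list's median was −0.41, which became 0.37 with fibroblast centring.

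Lpar1 itself read −3.20 on WT 0 h and −3.43 on KO 0 h (−0.22, SE 0.21) at its only probe, chromosome 4 from 58499672 to 58499731 (mm9). The probe's place relative to the edited site was not analysed here, so this reading checks nothing about the genotype. Of 22 genes of the lysophosphatidic acid and sphingosine 1-phosphate systems, 20 were measured, 4 called higher and 3 lower, with a median of −0.04. Among the other receptors, Lpar4 read −1.28 and −2.86 (−1.57), Lpar2 −3.04 and −3.88 (−0.84, with 0.55 at its second probe), Lpar5 −6.02 and −5.31 (0.70, near the floor) and Lpar6 4.20 and 5.07 (0.86). Lpar6 lay in the between class, and its 24 h signal minus its 0 h signal was −2.67 in WT and −4.14 in KO. Lpar3 was not well above background on either array.

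The enzymes that make and break the lipid split in direction. Enpp2, which encodes autotaxin, read −3.90 on WT 0 h and −1.57 on KO 0 h, a difference of 2.33 (SE 0.21). Plpp3, a phosphatase that degrades lysophosphatidic acid at the cell surface, read 2.90 and 1.31 (−1.59), while its relatives Plpp1 and Plpp2 differed by 0.31 and −0.78. Gdpd3, an enzyme of the same pathway, read −1.55 and −0.53 (1.02) and belonged to the genes low at 24 h. Pla1a, Pla2g12a and Sgpp1 differed by −0.48, −0.02 and −0.06, and Liph was not above background. In the sphingosine branch, the kinase Sphk1 read −2.95 and −1.22 (1.74), and Sphk2 read 1.08 on both arrays (0.01). The receptors S1pr3 (1.08) and S1pr1 (−1.34) were called in opposite directions, and S1pr2 (−0.54), S1pr4 (0.82) and the lyase Sgpl1 (−0.64) were not called.

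Several smooth muscle and cytoskeletal targets of SRF and MRTF were among the genes furthest above on KO 0 h. Of 19 measured targets 8 were called higher and 0 lower, with a median of 0.73 beside 0.06 over all genes, and the 17 kept members had a median of 0.45. Tagln, which encodes the actin-binding protein transgelin, read −2.09 on WT 0 h and 5.92 on KO 0 h, a difference of 8.02 (SE 0.20). Actg2, the enteric smooth muscle actin, read −4.27 and 3.75 (8.02, SE 0.21). Myl9, a regulatory myosin light chain, read 0.18 and 4.95 (4.77, SE 0.20), and Acta2, smooth muscle α-actin, read 3.48 and 6.32 (2.84, SE 0.06). The coactivator Tgfb1i1 (1.67, with 0.97 at a second probe), the tropomyosin Tpm2 (1.33), the calponin Cnn1 (1.22) and the focal adhesion protein vinculin, Vcl (1.07), made up the 8. Cnn1 read −6.82 and −5.60, close to the floor, and differed by 0.13 with normexp. Fhl1 was detected on KO 0 h only, at least 2.21-fold higher. Myh9 (0.02), Tpm4 (−0.12), Filip1l (−0.14) and Tpm1 (−0.26) did not pass 2-fold.

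None of 20 measured components of G12/13, RhoA and SRF signalling was called, and their differences ran from −0.72 (Gnaq, a Gq subunit) to 0.88 (Srf itself, with 0.18 at its other probe) around −0.04, or 0.75 with fibroblast centring. Rhoa differed by 0.33. Tagln lies on chromosome 9 (probe 45738097 to 45738156, mm9) and Actg2 on chromosome 6 (83462904 to 83462963). Among 17 YAP and TAZ targets, Ccn2, the connective tissue growth factor, differed by 2.39, Dlc1 (−1.45) and Arhgef17 (−1.22) were called lower, and the median was −0.21, or 0.58 with fibroblast centring. Immediate early genes had 1 of 22 called higher, Fosb (1.13), and 0 lower, with a median of 0.47.

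SRF binds a DNA element called the CArG box. The upstream 250 bases of 3 members that hold one are shown because Myl9 and Vcl were called higher and Cnn2, with 0.37, was not. Sequences are from the RefSeq promoter table (build GRCm38.p6), 5′ to 3′ on the gene's plus strand up to the base before the gene start, with the CArG box in capitals: Myl9 at chr2:156775214-156775463, Vcl at chr14:20929148-20929397 and Cnn2 at chr10:79988350-79988599.
Myl9: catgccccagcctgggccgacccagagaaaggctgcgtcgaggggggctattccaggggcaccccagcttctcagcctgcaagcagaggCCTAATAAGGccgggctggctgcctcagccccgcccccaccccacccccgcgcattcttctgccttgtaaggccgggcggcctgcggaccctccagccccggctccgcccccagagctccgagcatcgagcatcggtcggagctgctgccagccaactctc
Vcl: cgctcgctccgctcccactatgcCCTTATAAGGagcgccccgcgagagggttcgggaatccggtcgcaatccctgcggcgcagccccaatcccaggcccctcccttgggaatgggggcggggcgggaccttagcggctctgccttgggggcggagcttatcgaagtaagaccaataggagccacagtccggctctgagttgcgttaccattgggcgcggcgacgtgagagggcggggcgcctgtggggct
Cnn2: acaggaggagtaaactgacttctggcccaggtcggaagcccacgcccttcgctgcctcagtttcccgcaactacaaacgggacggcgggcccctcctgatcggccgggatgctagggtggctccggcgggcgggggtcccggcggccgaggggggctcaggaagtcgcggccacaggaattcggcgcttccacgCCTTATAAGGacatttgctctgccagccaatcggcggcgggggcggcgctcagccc
Counted from the gene start, the box begins at base −161 for Myl9, −227 for Vcl and −56 for Cnn2. Of the 18 list members in that table, 6 held a box in this window: these 3 and Fhl1, Fhl2 and Filip1l. Over all 32851 promoters of the table, 482 (1.47%) held one, searched by the strict consensus, which reads the same on both strands. That share counts promoters, of which a gene can have several, while the 6 of 18 counts genes. Of the members called higher, Acta2, Tpm2 and Cnn1 held no box in this window, and Tagln, Actg2 and Tgfb1i1 had no entry. A match is a description of the sequence, and its absence from a window says nothing about SRF.

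Of 21 measured fibroblast markers, 3 were called higher and 8 lower, with Thy1 far above the others, and the remaining 10 did not pass 2-fold. Thy1, a surface glycoprotein whose presence varies among fibroblast populations, read −7.02 on WT 0 h and 3.73 on KO 0 h, a difference of 10.74 (SE 0.31), at chromosome 9 from 43856591 to 43856650 (mm9). The WT value lies near the floor, and with normexp the difference was 7.95. Postn, the matricellular protein periostin, read −3.30 and −0.59 (2.71). Called lower were 8 of 21 measured markers: Fbln1 (1.13 and −1.95), the PDGF receptor Pdgfra (2.10 and −0.57), the protease Fap (−3.54 and −6.17), Loxl1, Col6a1, Dcn (3.34 and 1.86), Col3a1 and the collagen receptor Ddr2. Fn1, fibronectin, did not differ beyond its SE (−0.02), and Tcf21 (1.18) was called higher close to the floor. The list's median was −0.52, which turned to 0.27 when each array was centred on the median of these markers, and −0.79 among the 17 kept members. Beside it, the mast cell markers had a median of 0.93.

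The collagens followed the same lean. Of 29 measured collagen and collagen-processing genes 2 were called higher and 8 lower, with a median of −0.47 that became 0.32 with fibroblast centring. Fibril-forming type I chains hardly differed: Col1a1 read 3.13 and 2.87 (−0.26) and Col1a2 5.90 and 5.44 (−0.47). The beaded-filament chains Col6a2 (−2.08) and Col6a1 (−1.80), the fibril-associated Col12a1 (−1.71) and Col16a1 (−1.64) and the fibrillar Col3a1 (−1.37) and Col5a2 (−1.21) were called lower. The probes of Col6a2 and Col16a1 spanned −2.08 to −0.87 and −1.64 to −0.13. Called higher were the basement membrane collagen Col18a1 (−1.10 and 0.68) and the cross-linking enzyme Loxl2 (−2.64 and −0.69). Pcolce2, which speeds the trimming of procollagen, read 1.65 on WT 0 h and −4.07 on KO 0 h (−5.72, SE 0.21).

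Other matrix genes included 2 called higher and 9 lower of 26 measured (median −0.49, or 0.30 with fibroblast centring). Ogn, osteoglycin, read 0.07 and −3.02 (−3.09), and Efemp1 −3.32 and −5.35 (−2.03), whereas the difference of Tnc, tenascin C, was 2.66. Mfap2, a microfibril protein, was detected on WT 0 h only and was at least 56.1-fold lower on KO 0 h by its brightest probe, and another probe, measured on both arrays, gave −2.72. Fbln5, an elastic fibre protein outside this list, read −2.55 and 1.17 (3.72).

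Matrix proteases and their inhibitors differed in both directions, with 6 higher and 5 lower of 25 measured. Timp3, an inhibitor of metalloproteinases, read −1.74 on WT 0 h and 2.83 on KO 0 h (4.57, SE 0.20). The collagenase Mmp13 read −5.74 and −2.81 (2.93), the plasminogen activator inhibitor Serpinb2 −1.04 and 1.88 (2.92), and the urokinase Plau −1.79 and 0.13 (1.91). In the other direction, the thrombin inhibitor Serpine2 read 0.47 and −2.88 (−3.35), and the proteoglycan-cleaving Adamts1 read 4.52 and 1.47 (−3.05).

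**Figure D3:**
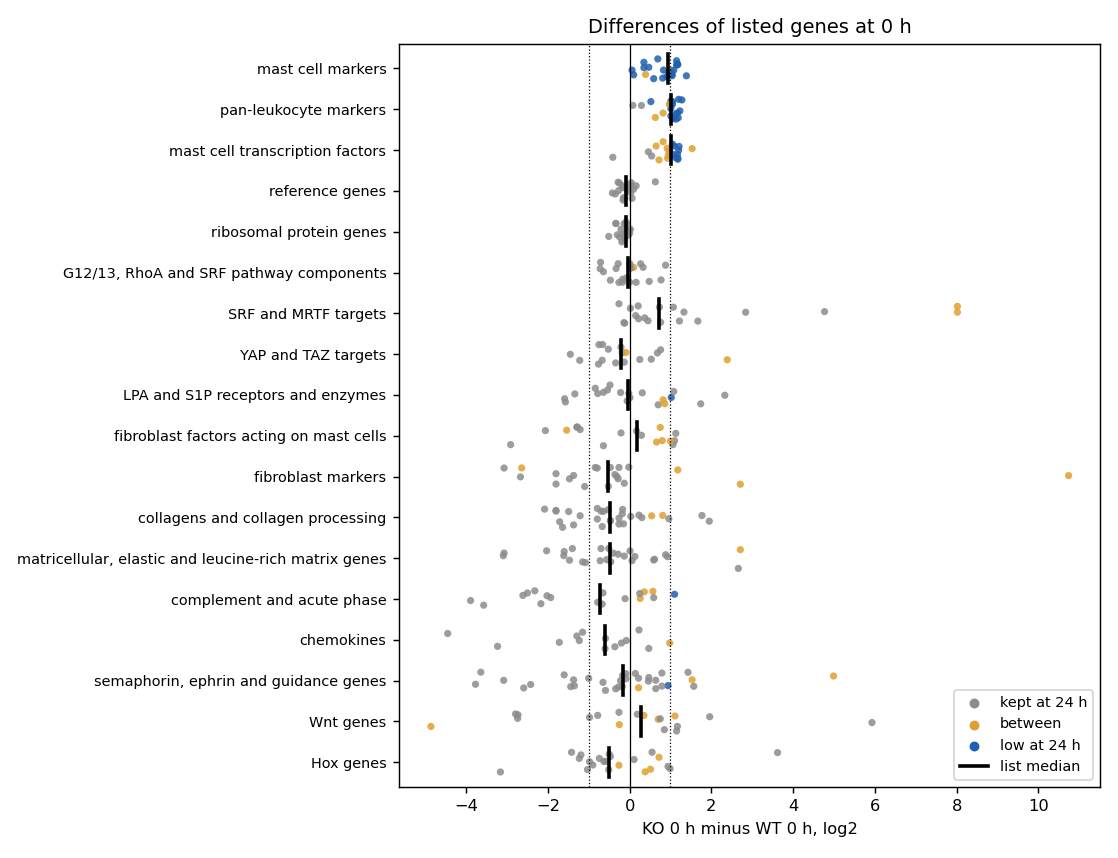
KO 0 h minus WT 0 h (log2) of each measured member of 18 gene lists, coloured by class, with a black bar at the list median and dotted lines at 2-fold. Mast cell and leukocyte lists cluster near 1, reference and ribosomal genes near 0, and the SRF target, fibroblast marker and Wnt lists spread over a wide range.

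Of the factors by which fibroblasts act on mast cells, 17 of 22 were measured, with 3 called higher and 6 lower and a median of 0.17, which was −0.05 with spike-in centring and −0.42 among the 12 kept members. Kitl, which encodes SCF, read −1.07 on WT 0 h and −3.13 on KO 0 h (−2.06, SE 0.21). Il33, the alarmin that signals through the mast cell receptor Il1rl1, read −1.41 and −4.32 (−2.91, SE 0.21). The adhesion molecule Cadm1 (−1.54), the chemokine Cxcl12 (5.83 and 4.54, −1.29) and the integrin ligand Vcam1 (4.01 and 2.73, −1.28) were also called lower, and 1 member called lower is not reported here. Called higher were the adhesion molecule Alcam (1.13), the cytokine Tslp (1.10) and Pla2g3 (1.06), a secreted phospholipase that read −6.41 and −5.34, near the floor. Flt3l stood just at the threshold (1.00) without passing it.

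The following members of that list did not pass 2-fold. Csf1 differed by −0.64, with a range over 4 probes from −1.33 to 0.64. Il6 differed by 0.80, Icam1 by 0.75, Tgfb1 by 0.66, Tgfb3 by 0.29, Cd44 by 0.17 and Tgfb2 by −0.21. Ptgds, the prostaglandin D synthase, was above background on WT 0 h only, at least 1.42-fold lower on KO 0 h. Nt5e, Il9, Il25 and Ptgdr were not above background on either 0 h array. Il1rl1, the receptor of IL-33, read 5.89 and 6.28 (0.39), and its 3 probes spanned 0.39 to 2.15.

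Several innate defence genes were called lower on KO 0 h. Of 14 kept members of the complement and acute phase list, 8 were called lower and 0 higher, with a median of −1.97, where 4.93% of all kept genes were called lower. Over all 18 measured members the median was −0.72, or 0.06 with fibroblast centring, 6 lay above 0, and 1 was called higher, Cd55 (1.10), a gene low at 24 h. C3, the central complement protein, read 3.67 on WT 0 h and −0.22 on KO 0 h (−3.89, SE 0.07). The classical pathway proteases C1s1 (1.20 and −2.37, −3.57) and C1ra (1.40 and −1.21, −2.61) read lower as well. So did the alternative pathway gene Cfb (−2.50), the iron-binding lipocalin Lcn2 (−2.17), haptoglobin Hp (−2.02) and the lectin pathway protease Masp1 (−1.93).

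Chemokines and cytokine genes included further genes called lower. Of 14 measured chemokine genes 6 were called lower and 0 higher (median −0.60, or 0.19 with fibroblast centring). Cxcl5, which attracts neutrophils, read 4.22 and −0.23 (−4.45, SE 0.20) and Cxcl1 3.34 and 0.11 (−3.23), while Ccl2, which attracts monocytes, read 6.71 and 6.63 (−0.08). Of 24 measured genes of the IL-6 family, the IL-1 family and other cytokines, 6 were called higher and 7 lower, 14 lay above 0 and the median was 0.37, or −0.68 among the 16 kept members. The receptor for leukaemia inhibitory factor, Lifr, read 1.68 and −3.52 (−5.20, with −2.18 at the least changed of 3 probes). The oncostatin M receptor Osmr read 3.76 and 0.01 (−3.74), the IL-1 receptor Il1r1 1.44 and −0.96 (−2.40) and the shared subunit Il6st 1.49 and −0.15 (−1.64). Il11 (1.57) and the decoy receptor Tnfrsf11b (2.11) were called higher. Of 28 interferon-stimulated genes 3 were higher and 3 lower, from Ifih1 (2.53) to Zbp1 (−2.65, with −1.19 at another probe). Among all measured genes 9.27% were called higher and 4.05% lower.

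Among all kept genes, members of the lists or not, those furthest above were mostly dim in WT and brighter in KO. Thy1, Tagln and Actg2, with larger differences, lay in the between class and are not ranked here. Emp2, an epithelial membrane protein, read −4.72 on WT 0 h and 1.52 on KO 0 h (6.24, SE 0.21). Ror2, a receptor kinase for Wnt5a, read −6.31 and −0.38 (5.93, SE 0.26), and its difference was 3.44 with normexp. The small GTPase Diras2 read −4.95 and 0.14 (5.09), and Osr1, a transcription factor of embryonic mesenchyme, −5.73 and −0.74 (4.99). Myl9 ranked next, then the haem-binding Hebp1 (4.71), the RNA-binding Celf4 (4.40, with 0.04 at its other probe) and the focal adhesion protein Lims2 (4.27). Lactate dehydrogenase B, Ldhb (4.10), the carbonyl reductase Cbr2 (4.06) and the kinesin Kif5c (4.04) followed. Sh3gl3 (3.98), the Bcl-2 relative Bok (3.84) and the membrane repair protein Dysf (3.84) were also among the 15 highest. Grem1, a secreted antagonist of bone morphogenetic proteins, read 0.48 and 4.30 (3.82).

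The kept genes furthest below read near the floor in KO in several cases. Syt13, a member of the synaptotagmin family of vesicle proteins, read 3.61 on WT 0 h and −5.38 on KO 0 h (−8.99, SE 0.23), at chromosome 2 from 92795818 to 92795877 (mm9). After Pcolce2 came the F-box gene Fbxl7 (0.45 and −5.17, −5.62), lipoprotein lipase, Lpl (3.51 and −1.90, −5.41), and Lifr. Ch25h, which makes 25-hydroxycholesterol, read −0.63 and −5.80 (−5.17), Gprin3 −1.09 and −6.24 (−5.15), and Ecscr 1.47 and −3.68 (−5.14). Tmem45a (−4.86), the decoy receptor Il13ra2 (−4.82), Tbkbp1 (−4.55, with −0.65 at another of 3 probes) and Cxcl5 were next. Zfp981 (−4.25, with −0.85 at another probe), the Ras relative Rasl11a (−4.22) and nestin, Nes (−4.16), closed the 15.

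Some genes were detected on only 1 of the arrays, so only a lower limit of the fold can be given. Each limit divides the bright signal by the dim array's lowest signal well above background, or by the dim probe's signal where that is higher. On KO 0 h, Tpd52l1 was at least 308-fold higher, Scrn1 at least 226-fold, the noncoding imprinted gene Meg3 at least 143-fold and the transcription factor Foxa2 at least 101-fold. The actin-binding Nexn was at least 93.5-fold and Slc18b1 at least 92.1-fold higher. In the other direction, the junction protein F11r was at least 282-fold lower on KO 0 h, Xist at least 223-fold, the transcription factor Wt1 at least 122-fold and Ggt6 at least 113-fold, with −1.16 at another probe of Ggt6 that was measured on both arrays. The vasopressin receptor Avpr1a was at least 81.9-fold and the bombesin-type receptor Grpr at least 77.8-fold lower. On the 24 h arrays, 5 of the 6 higher genes were again not above background in WT, Meg3 being the exception, and 4 of the 6 lower ones again not in KO, Wt1 and Ggt6 being the exceptions. By the brightest probe, 544 genes were at least 2-fold higher by such limits and 160 lower.

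Developmental regulators differed in both directions, beside 9.27% higher and 4.05% lower among all measured genes. Of 29 measured mesenchymal transcription factors 7 were higher and 4 lower, around −0.09, or 0.70 with fibroblast centring: Osr1 at 4.99, Sox11 at 3.54, Foxc2 at 3.10 and Foxf1 at 2.10 on one side, and Tbx18 at −1.68 and Foxf2 at −1.55 on the other. Of 22 measured Hox genes 1 was higher and 5 lower, with a median of −0.51 that became 0.28 with fibroblast centring. Hoxa7 read −4.53 and −0.91 (3.62), Hoxb9 read −2.75 and −5.91 (−3.16), and Hoxc6 was detected on WT 0 h only (at least 34.2-fold lower on KO 0 h). The imprinted Dlk1, an inhibitor of fat cell formation, read 2.98 and 5.58 (2.59), Peg3 was at least 10.7-fold lower, and the 3 probes of Mirg disagreed, from −1.23 to 4.04.

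Secreted and guidance signals also split, beside the same 9.27% higher and 4.05% lower among all measured genes. Among 18 measured Wnt genes 5 were higher and 4 lower, with Ror2 above and the Wnt enhancer Rspo3 (−1.08 and −5.94, −4.86), Wnt4 (−2.79), the receptor Fzd1 (−2.74) and Wnt6 (−2.73) below. Of 25 growth factors 7 were higher and 7 lower. The hepatocyte growth factor Hgf read −5.73 and −2.47 (3.26), and Angptl2 −3.78 and −1.38 (2.39). Pleiotrophin, Ptn, read 2.62 and 0.50 (−2.12), and the keratinocyte growth factor Fgf7 3.96 and 2.74 (−1.23). Of 33 guidance genes 4 were higher and 10 lower, around −0.17, which became 0.62 with fibroblast centring. The Slit receptor Robo1 read −1.21 and −4.99 (−3.77), the semaphorin Sema3f 2.01 and −1.63 (−3.64) and the ephrin Efna5 1.92 and −1.16 (−3.08), while Sema7a read −5.72 and −0.73 (4.99).

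**Figure D4:**
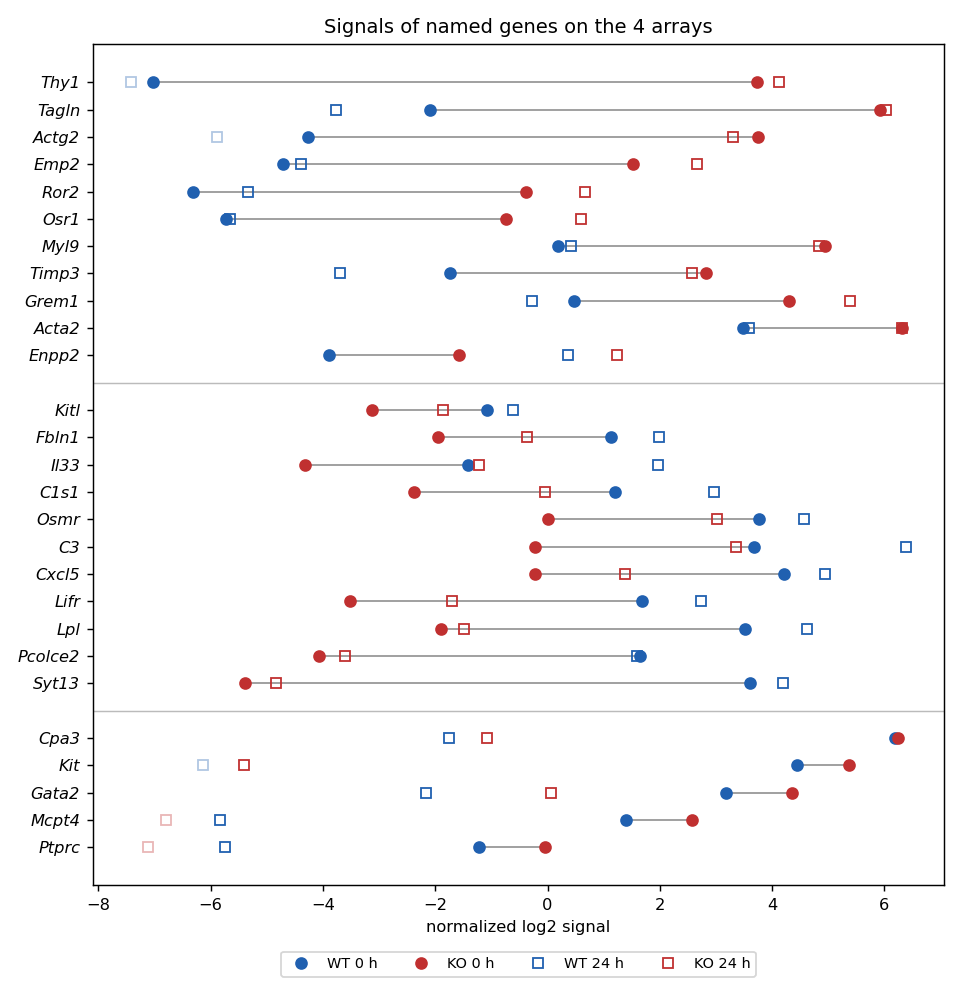
Normalized log2 signal of 27 named genes on the 4 arrays, with filled circles for 0 h and open squares for 24 h, blue for WT and red for KO, pale where a probe was not well above background, and a grey line joining the 0 h pair. Genes above the first rule read higher on KO 0 h, those in the middle block higher on WT 0 h, and the mast cell genes at the bottom are separated by time.

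The 24 h pair shares no array with the 0 h pair, although it shares the clone and the slide and the classes use all 4 arrays, and the kept genes that differed at 0 h mostly differed the same way there. Of 499 kept genes higher on KO 0 h, 376 (75.4%) were also above 0 at 24 h and 307 (61.5%) passed 2-fold. At 24 h 5.1% of all kept genes were called higher, and 5.76% of all 17313 genes measured there, and 45.2% of kept genes lay above 0. Of 747 kept genes lower on KO 0 h, 695 (93%) were also below 0 at 24 h and 391 (52.3%) passed 2-fold. Here 9.49% of kept genes and 12.3% of all genes were called lower, and 54.8% of kept genes lay below 0. The kept class leaves out genes more than 2-fold lower at 24 h in either genotype, which favours agreement. Over all genes called at 0 h and measured at 24 h, 602 of 962 higher ones (62.6%) kept their sign and 216 were called lower. Of 783 lower ones 720 (92%) did, and 1 was called higher. Syt13 differed by −9.04 at 24 h, Pcolce2 by −5.21, Lpl by −6.13, Emp2 by 7.05, Ror2 by 5.99 and Myl9 by 4.43. Across all 15146 kept genes, Pearson's r was 0.53 and Spearman's rho 0.30. In the 12375 of them with a mean signal over the 4 arrays at or above −4, r was 0.74 and rho 0.52. These values describe genes, which are not independent replicates.

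The genes low at 24 h behaved otherwise. Of the 147 called higher at 0 h that were also measured at 24 h, 69 (46.9%) were above 0 there, with a median of −0.12 against 1.14 at 0 h. Over the 210 low genes measured at both times, r was 0.04 and rho −0.01. The 0 h differences of the low class span little (quartiles 1.00 and 1.19, median SE 0.20), so these coefficients could hardly show a relation. At 24 h their signal lay near the floor, with class medians of −5.98 on WT 24 h and −6.17 on KO 24 h. Some kept genes differed less at 24 h: Osmr went from −3.74 to −1.55, Enpp2 from 2.33 to 0.87, S1pr1 from −1.34 to −0.10 and Dcn from −1.47 to −0.01. Whether these 0 h and 24 h differences truly differ was not tested.

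**Figure D5:**
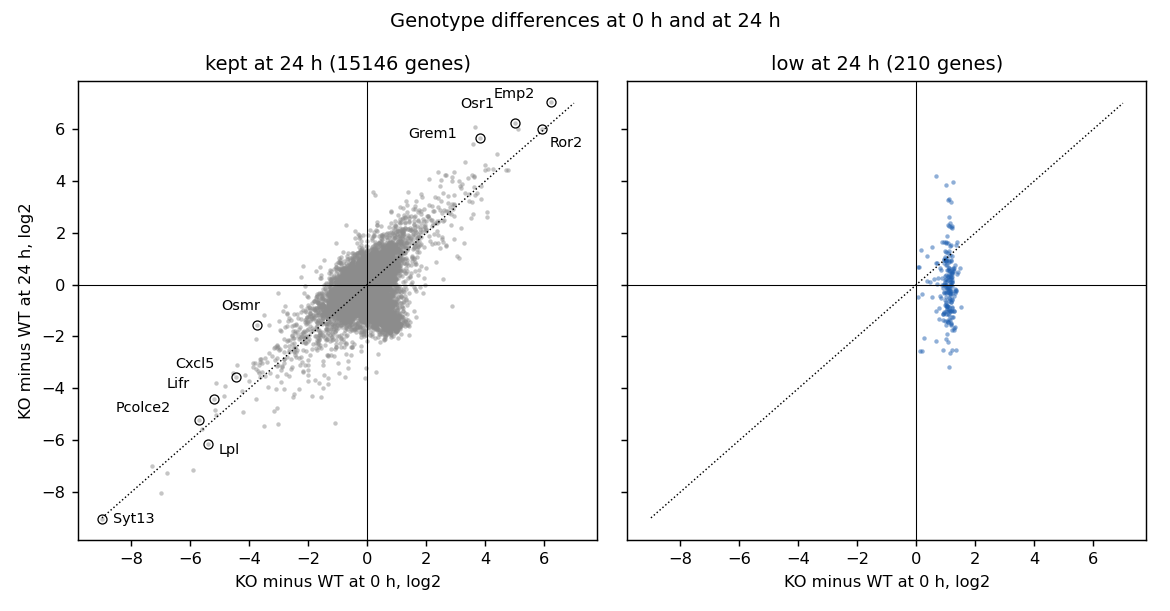
KO minus WT at 24 h (vertical) against KO minus WT at 0 h (horizontal), both log2, for the 15146 kept genes (left) and the 210 genes low at 24 h that were measured at both times (right), with the dotted line at equality. Kept genes such as Syt13, Lpl, Emp2 and Ror2 lie along the line, while the low genes stand in a narrow column near 1.10 at 0 h and scatter around 0 at 24 h.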

How the data were processed

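RNA from cocultured 3T3 cells was hybridized to single-colour Agilent arrays (200 ng labelled RNA each). Spot intensity and its error were deposited as Feature Extraction 12.1.1.1 output, with background removed within each array, per the file headers. The authors' deposited value table holds the ratio of each processed signal to its array's 75th percentile, as a comparison with the scanner files showed. Here log2 processed intensity was centred on the 75th percentile of non-control spots. Probes (39429) were placed on mm9 per the file headers, and 29110 were named by accession through the RefSeq GRCm38.p6 table. A gene takes its probe with the highest mean over all 4 arrays. A call needs a 2-fold difference and both spots well above background. Named genes are the 15 highest and 15 lowest per class with a mean signal at or above −4 that pass 2-fold with normexp too, the 6 genes per direction with the largest at-least fold, list extremes, and all members of the lysophosphatidic acid and fibroblast factor lists, fewer where space required; provisional names stayed out, and some members are not reported here. Any other gene was chosen after its values were seen. The members, classes and 51 gene lists were chosen with earlier results of these data known. Alternatives were quantile normalization, normexp (offset 50, limma 3.58.1 in R 4.3.3) followed by quantile normalization, and the authors' table. Further ones were centring on fibroblast markers, reference genes or spike-ins, other filters on dim probes, the mean of probes and other class limits. Calculations used Python 3.11.15, numpy 2.4.6 and pandas 2.3.3, and calls were tested on simulated data. The number of arrays limits the precision.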

Additional observations from a re-analysis of the deposited data

Results flagged for a closer look

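Some genes differed between KO and WT in opposite directions at 0 h and at 24 h. At least 2-fold higher on KO 0 h and at least 2-fold lower on KO 24 h were 216 genes, and 1 gene, a transcript with only a provisional name, showed the reverse. Of the 216, 78 were kept at 24 h, 77 of these with a mean 0 h signal below −4. A further 31 belonged to the genes low at 24 h and 107 lay between, 77 of the latter also below −4. Among genes named above, Btk differed by 1.20 at 0 h and −1.24 at 24 h, and Hdc, the histamine-forming enzyme, by 1.00 and −1.57. Pla2g3 differed by 1.06 and −1.47, and Tcf21 by 1.18 and −1.98. The 2 dim spike-in RNAs, added in equal amounts, changed sign in the same way, from 0.58 and 0.69 at 0 h to −0.77 and −0.81 at 24 h. The 8 brighter ones lay above 0 at 24 h, from 0.09 to 0.81. Sign changes of dim genes can therefore not be read as a difference between genotypes. With 1 array per group these differences between the time points were not tested.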

How the results depend on the processing

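The normalization sets how many genes passed 2-fold, and several counts depend on it. With normexp and quantile normalization 800 genes were higher on KO 0 h, 230 of the kept genes and 249 of the genes low at 24 h were higher, and 201 kept genes were higher and 250 lower at both times. Centred on fibroblast markers, 8134 genes were higher and 250 lower, kept genes split 2387 to 213 around 0.65, and 837 were higher and 172 lower at both times. There the medians were 1.89 for genes low at 24 h, 1.72 for mast cell markers, 0.27 for fibroblast markers, 1.52 for SRF and MRTF targets and 0.06 for complement genes. Centred on spike-ins, 785 genes were higher and 1382 lower, kept genes split 257 to 1215 around −0.34, 193 were higher and 760 lower at both times, and 104 genes low at 24 h were higher. There the same medians were 0.88, 0.71, −0.75, 0.51 and −0.95. Without a filter on dim probes 3819 genes were higher and 1384 lower. With a mean signal at or above −4 required, 1045 genes and 266 kept genes were higher, and the complement median was −1.35. With stricter class limits 246 kept genes were higher, 191 of them at both times. With classes from the 24 h arrays alone, 124 kept genes were higher and 309 lower, 72 and 106 at both times, and the low class held 7 lower genes around a median of 0.86. Limited to kept members, the medians of fibroblast markers, SRF targets and complement genes were −0.79, 0.45 and −1.97. By construction, a filter or class limit leaves fewer or other genes, and the normexp offset draws dim differences towards 0. Beyond that, the causes of these shifts were not tested. Of 206 named genes with a difference, Mirg reversed, to 1.38 as the mean of its probes, and no other gene past 2-fold changed sign under the settings tried. All 206 moved by less than 1 SE with the authors' value table. Spike-in centring and classes from the brighter genotype were chosen after seeing the data.

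No paired analysis was possible because each group has 1 array, and for the same reason no replicate could be left out. Dim probes limit the precision: differences near the background floor shrink or vanish with normexp, as for Cnn1 and Pla2g3, each 0.13 there. The normexp offset shrinks such differences by construction.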

Other observations

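Some genes of the skin barrier, which fibroblasts are not known for, were among those higher on KO 0 h. The families in these paragraphs were chosen after their values were seen. Of 20 late cornified envelope genes on the array, 11 were measured, 7 were at least 2-fold higher on KO 0 h and 0 lower, with a median of 1.73 beside 0.06 over all genes. Lce1h read −5.88 on WT 0 h and −1.32 on KO 0 h (4.56), Lce1c −2.27 and 0.23 (2.50) and Lce1g 0.46 and 2.52 (2.07). At 24 h the difference of Lce1c was 4.73 and that of Lce1g 5.33. The Lce1 genes are near-identical in sequence, so their probes may read one another and the count is uncertain. Of 15 small proline-rich genes, which encode other envelope proteins, 8 were measured, with 3 higher and 1 lower. Sprr2d read −3.62 and −0.83 (2.79, and 7.06 at 24 h), whereas Sprr1b differed by −1.48. Sprr2a3 was detected on WT 0 h only and was at least 13.7-fold lower on KO 0 h. The Sprr2 genes share much sequence as well. Of 54 keratin genes 32 were measured, with 6 higher and 1 lower and a median of 0.34. All of these called keratins had a mean 0 h signal below −4. Among all measured genes that dim, 13.9% were called higher and 2.82% lower, around a median of 0.44. Among those not called, Krt10 differed by −0.57 and Krt14 by −0.24. Over all measured genes 9.27% were called higher and 4.05% lower.

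Detoxification genes leaned the other way in part. All 3 alpha-class glutathione S-transferases were lower on KO 0 h, namely Gsta2 (−3.99), Gsta4 (−2.96) and Gsta3 (−2.94), and so was Gstt1 (−3.31). Over all 21 genes of the superfamily 7 were lower and 3 higher, around −0.19. Ramp3, which steers receptors of the calcitonin family, read −2.03 and 2.58 (4.60, and 7.51 at 24 h), and Adm, the ligand adrenomedullin that acts through such receptors, differed by −2.66 (−3.53 at 24 h). Among regulators of growth, Spry1, an inhibitor of receptor kinase signalling, differed by −2.76, and the cyclin-dependent kinase inhibitor Cdkn2b by 2.07. Of 21 measured fatty acid and adipogenic genes 3 were higher and 2 lower (median 0.20, or −0.02 with spike-in centring), and of 25 cholesterol genes 1 and 1 (median 0.37). Among them the triglyceride enzyme Dgat2 differed by 1.90, the cholesterol exporter Abca1 by −1.91 and the lipid droplet gene Plin4 by −1.65. The Y-linked genes Ddx3y (−1.75 and −0.40) and Eif2s3y (−0.12 and 1.18) both belonged to the genes low at 24 h, and the 454 kept X-linked genes with a mean 0 h signal at or above −4 had a median of −0.13.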
